A study of Mus musculus with 16 samples.

Results

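Formyl peptide, complement anaphylatoxin and platelet-activating factor (PAF) receptors are the receptors through which neutrophils sense bacterial peptides, complement fragments and a lipid mediator. The 7 genes described are Fpr1, Fpr2, C5ar1, C5ar2, C3ar1, Ptafr and C3, chosen by name (6 receptors and the precursor of a complement ligand) and matched by Ensembl identifier among the 49315 genes counted. Blood and lung neutrophils of male WT and αD KO mice, 8-12 weeks old, had been sorted on Ly6G+, CD11b+ and CD45.2+, and their RNA was sequenced. The αD KO mice are labelled as lacking the integrin αD chain, which Itgad encodes, and the level of Itgad in these libraries is given below because it goes against that label. Neutrophils were taken at 0 h, labelled naïve or untreated, and at 12 h after cecal ligation and puncture (CLP), a surgical model of polymicrobial sepsis in which gut bacteria leak into the peritoneum. The 8 groups of genotype, tissue and time held 3 libraries each, from 16 samples. The first sample of each group had 2 count files (libraries 1a and 1b), and the second sample had 1 (library 2). Nothing in the labels says that the 3 libraries of a group came from separate animals, so every p-value below measures the spread between these libraries.

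Fpr1 and Fpr2 are receptors for N-formylated peptides, which bacteria and mitochondria release, and they couple to inhibitory G proteins to drive chemotaxis, degranulation and the oxidative burst. Fpr2 also responds to serum amyloid A, cathelicidin and annexin A1. C5ar1 is the G protein-coupled receptor for C5a, whereas C5ar2 binds the same ligand, does not couple to G proteins and recruits β-arrestin. C3ar1 binds C3a, and Ptafr binds PAF. C3 is the central complement protein, which is cleaved to C3a and to the opsonin C3b.

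On GRCm38, Fpr1 (ENSMUSG00000045551) lies on the minus strand at chr17:17876471-17883940 and Fpr2 (ENSMUSG00000052270) beside it on the plus strand at chr17:17887824-17893952. C5ar1 (ENSMUSG00000049130) and C5ar2 (ENSMUSG00000074361) are neighbours on the minus strand, at chr7:16246743-16259540 and chr7:16234585-16244154. C3ar1 (ENSMUSG00000040552) lies at chr6:122847138-122856161 on the minus strand. Ptafr (ENSMUSG00000056529) occupies chr4:132564067-132582683 on the plus strand. C3 (ENSMUSG00000024164) lies at chr17:57203970-57228136 on the minus strand. The exons of Fpr2 shared 48 bases with those of Fpr3, which had at most 31 counts in a library, and the exons of C5ar2 shared 127 bases with Gm26473, which had no counts.

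The promoters of the 4 genes that passed the test with time after CLP are shown because these genes moved in the same libraries, 3 upward and 1 downward. Each sequence is the 250 bases before the transcript start in RefSeq on GRCm38.p6, written 5′ to 3′ on the strand of the gene, with capitals marking matches to the motifs named after them.
Fpr1, chr17:17883940-17884189, minus strand: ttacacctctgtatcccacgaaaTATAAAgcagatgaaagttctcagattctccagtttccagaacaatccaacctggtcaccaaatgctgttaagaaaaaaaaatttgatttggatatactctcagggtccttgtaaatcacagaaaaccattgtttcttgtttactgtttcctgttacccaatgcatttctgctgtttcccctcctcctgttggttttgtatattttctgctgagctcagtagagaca
Fpr2, chr17:17887574-17887823, plus strand: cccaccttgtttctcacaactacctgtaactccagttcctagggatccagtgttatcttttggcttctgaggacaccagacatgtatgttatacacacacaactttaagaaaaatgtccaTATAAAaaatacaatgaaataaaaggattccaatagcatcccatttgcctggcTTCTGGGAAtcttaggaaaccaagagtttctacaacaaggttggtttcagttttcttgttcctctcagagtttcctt
C3, chr17:57228137-57228386, minus strand: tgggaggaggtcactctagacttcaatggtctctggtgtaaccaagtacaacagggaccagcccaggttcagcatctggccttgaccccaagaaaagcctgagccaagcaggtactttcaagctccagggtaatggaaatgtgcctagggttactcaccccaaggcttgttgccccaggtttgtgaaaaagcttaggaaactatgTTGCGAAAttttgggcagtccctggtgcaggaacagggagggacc
C5ar2, chr7:16244155-16244404, minus strand: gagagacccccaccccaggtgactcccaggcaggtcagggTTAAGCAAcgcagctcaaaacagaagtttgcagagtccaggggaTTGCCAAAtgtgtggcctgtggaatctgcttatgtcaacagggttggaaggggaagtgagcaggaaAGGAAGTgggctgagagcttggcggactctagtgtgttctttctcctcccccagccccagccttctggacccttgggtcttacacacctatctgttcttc
Both strands were searched for the C/EBP core (TTGCNNAA), the STAT core (TTCNNNGAA), the AP-1 core (TGANTCA), a PU.1 site (AGGAAGT) and a TATA box (TATAAA). The C3 window held a C/EBP match 45 bases before the start, and the C5ar2 window held C/EBP matches at 210 and 166 bases and a PU.1 match at 100 bases. The Fpr2 window held a STAT match at 77 bases and a TATA match at 130 bases, and that of Fpr1 held a TATA match at 227 bases. A second RefSeq start of C5ar2 had no match. Of the genes that did not pass the test with time, C5ar1 had PU.1 matches at 190 and 72 bases. The C3ar1 window held an AP-1 match at 22 bases and a TATA match at 235 bases, and that of Ptafr had no match. Of 32851 promoters of this length, 9.56% held the C/EBP core, 7.02% the STAT core, 6.75% the AP-1 core, 7.69% the PU.1 site and 12.4% the TATA box, and no motif was present in all 4 windows. These matches describe the letters and are not evidence of binding.

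Total counts were 5753476 to 29984954 per library, and the 8 libraries 1b had counts for 29162 to 38844 genes against 17132 to 32666 in the other 16. Levels are given as CPM, counts scaled by library size and edgeR's TMM factor. The targeted gene went against the genotype labels, since Itgad was at 12.5 to 102 CPM (median 51.2) in the libraries labelled αD KO and at 0.0583 to 3.66 CPM (median 1.12) in those labelled WT. Every direction between genotypes below is therefore a direction between labels. The counts are of RNA over all exons, and whether αD protein was made in these cells was not tested. The neutrophil markers were present in every library, with S100a8 at 8852 to 97865 CPM, Csf3r at 886 to 13810 CPM and Ly6g at 18.4 to 467 CPM. Of the libraries, 3 in αD KO lung stood apart. On a scale of 1337 genes set to 0 at the mean of WT lung at 0 h and to 1 at 12 h, with the 7 genes left out, library 2 of the group labelled αD KO lung 0 h had a position of 1.03, and libraries 1a and 2 of the group labelled αD KO lung 12 h had positions of 0.0996 and 0.188. All other 0 h libraries lay at -0.0407 to 0.221, and all other 12 h libraries at 0.66 to 1.21. The changes with time of Fpr1, Fpr2, C5ar2 and C3 in αD KO lung are given with and without these 3 libraries. Log2 differences of C5ar1, C3ar1 and Ptafr that use αD KO lung are given in the text with these libraries included.

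In WT blood, Fpr1, Fpr2 and C3 were higher and C5ar2 was lower at 12 h after CLP than at 0 h. Fpr2 stood at 105, 54.7 and 105 CPM at 0 h (libraries 1a, 1b and 2, the order used throughout) and at 1186, 477 and 1145 CPM at 12 h. Fpr1 was at 560, 175 and 507 CPM at 0 h and at 3798, 1133 and 3309 CPM at 12 h. Library 1b was the lowest of its group for both formyl peptide receptors at both times, and the 2 times did not overlap. C5ar2 was at 118, 104 and 182 CPM at 0 h and at 27.4, 34.5 and 49.0 CPM at 12 h. C3 was at 239, 145 and 244 CPM at 0 h and at 787, 366 and 877 CPM at 12 h. For these genes too the lowest library of the higher time lay above the highest library of the other.

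By edgeR's quasi-likelihood test on the 14625 genes tested in WT blood, the log2 fold change was 3.18 ± 0.42 (SE, adjusted p = 0.00467, 9.06-fold) for Fpr2 and 2.52 ± 0.55 (adjusted p = 0.0246, 5.72-fold) for Fpr1. It was -2.05 ± 0.33 (adjusted p = 0.00917) for C5ar2 and 1.46 ± 0.36 (adjusted p = 0.0355) for C3. Calls needed an adjusted p below 0.05 together with a log2 fold change above 1 in size, and this rule called 7.75% of genes higher and 5.75% lower. Of the 7 genes, 3 were called higher and 1 lower, and the same 4 were those without overlap between the times, as were 34.7% of genes tested. The calls rested on libraries 1a and 2: without either of them at either time 0 of the 7 genes was called (adjusted p up to 0.510, for C3, with log2 fold changes of 1.34 to 1.68), while all 4 calls stood without either library 1b, where 18.4% and 9.9% of all genes were called. In the fits without calls among the 7, 0.00999% to 0.811% of all genes were called. Over these 6 fits the fold changes stayed close, at 2.20 to 2.79 for Fpr1, 3.0 to 3.41 for Fpr2 and -2.23 to -1.69 for C5ar2. With all 8 groups in the same fit only Fpr2 of the 7 was called in WT blood (3.40, adjusted p = 0.0175), against 4.12% of all genes.

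WT lung gave the same 4 directions. Fpr2 was at 148, 68.4 and 116 CPM at 0 h and at 984, 474 and 821 CPM at 12 h. C5ar2 was at 203, 136 and 216 CPM at 0 h and at 31.7, 21.0 and 47.6 CPM at 12 h. C3 was at 173, 197 and 226 CPM at 0 h and at 1493, 501 and 1317 CPM at 12 h. The 2 times did not overlap for these 3 genes. In edgeR, Fpr2 rose by 2.71 ± 0.41 (adjusted p = 0.0104), C3 rose by 2.35 ± 0.41 (adjusted p = 0.0171) and C5ar2 changed by -2.54 ± 0.35 (adjusted p = 0.00812) on the log2 scale. Thus 2 of the 7 genes were called higher and 1 lower, against 5.24% and 3.78% of genes tested.

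Fpr1 in WT lung was at 683, 234 and 699 CPM at 0 h and at 5976, 1212 and 2352 CPM at 12 h. The times did not overlap, and the 12 h libraries were far apart, with library 1a at 5976 CPM. Its log2 fold change of 2.44 ± 0.63 had an edgeR adjusted p of 0.0504, just above the threshold. With the library number as a block it was 2.39 ± 0.48 (adjusted p = 0.0403, called), and its adjusted p was 0.000298 to 0.403 over 14 alternatives, 6 of which called it. Fpr1 was among 4 genes without overlap in WT lung, where 28.5% of genes tested had none. Without library 1a or 2 of either time, 0 of the 7 genes was called in WT lung, although the log2 fold changes stayed at 2.42 to 3.04 for Fpr2, -3.02 to -2.42 for C5ar2 and 2.01 to 2.5 for C3 over the 6 fits that left out a library. In those 4 fits 0.0% to 0.122% of all genes were called. With all 8 groups in the same fit only C5ar2 of the 7 was called (-2.47, adjusted p = 0.0453), against 1.65% of all genes. Without 12 h library 1b, where 25.3% of all genes were called, 6 of the 7 were, with C5ar1 (log2 fold change 1.22, adjusted p = 0.0345) and Ptafr (1.09, adjusted p = 0.0171) added to the 3 called genes and Fpr1.

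αD KO blood had the same 4 genes called as WT blood. Fpr2 was at 109, 69.0 and 134 CPM at 0 h and at 660, 582 and 1068 CPM at 12 h. Fpr1 was at 443, 285 and 448 CPM at 0 h and at 1493, 1383 and 3930 CPM at 12 h. At 12 h library 2 was the highest for both receptors, and no 12 h library reached down to a 0 h library. C5ar2 was at 158, 165 and 97.9 CPM at 0 h and at 24.5, 36.0 and 29.9 CPM at 12 h. C3 was at 268, 248 and 227 CPM at 0 h and at 651, 595 and 740 CPM at 12 h. The 12 h values of C3 lay close together, at 662 ± 73.0 CPM (SD, n = 3).

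In edgeR, the αD KO blood log2 fold changes were 2.68 ± 0.33 for Fpr2 (SE, adjusted p = 0.00484), 2.30 ± 0.43 for Fpr1 (adjusted p = 0.0192), -2.46 ± 0.38 for C5ar2 (adjusted p = 0.00916) and 1.18 ± 0.27 for C3 (adjusted p = 0.0349). With 3 of 7 genes called higher and 1 lower, the background was 3.75% of genes called higher and 4.99% lower, and 32.2% of genes had no overlap. Fpr2 was called in 5 of 6 fits that left out a library, Fpr1 and C5ar2 in 3 each and C3 in 1. Without 0 h library 1a, 0 of the 7 genes was called, against 0.456% of all genes. Without 12 h library 2 only Fpr2 of the 7 was called (0.973% of all genes), and 2 of the 7 were called without 0 h library 2 (3.51% of all genes) or 12 h library 1a (1.54%). The log2 fold changes over these fits were 1.74 to 2.60 for Fpr1, 2.44 to 2.95 for Fpr2, -2.63 to -2.15 for C5ar2 and 1.16 to 1.33 for C3. With all 8 groups in the same fit 0 of the 7 genes and 0.236% of all genes were called, and the 4 genes had adjusted p-values from 0.0611 (Fpr2, 2.89) to 0.29 (C3, 1.42).

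**Figure D1:**
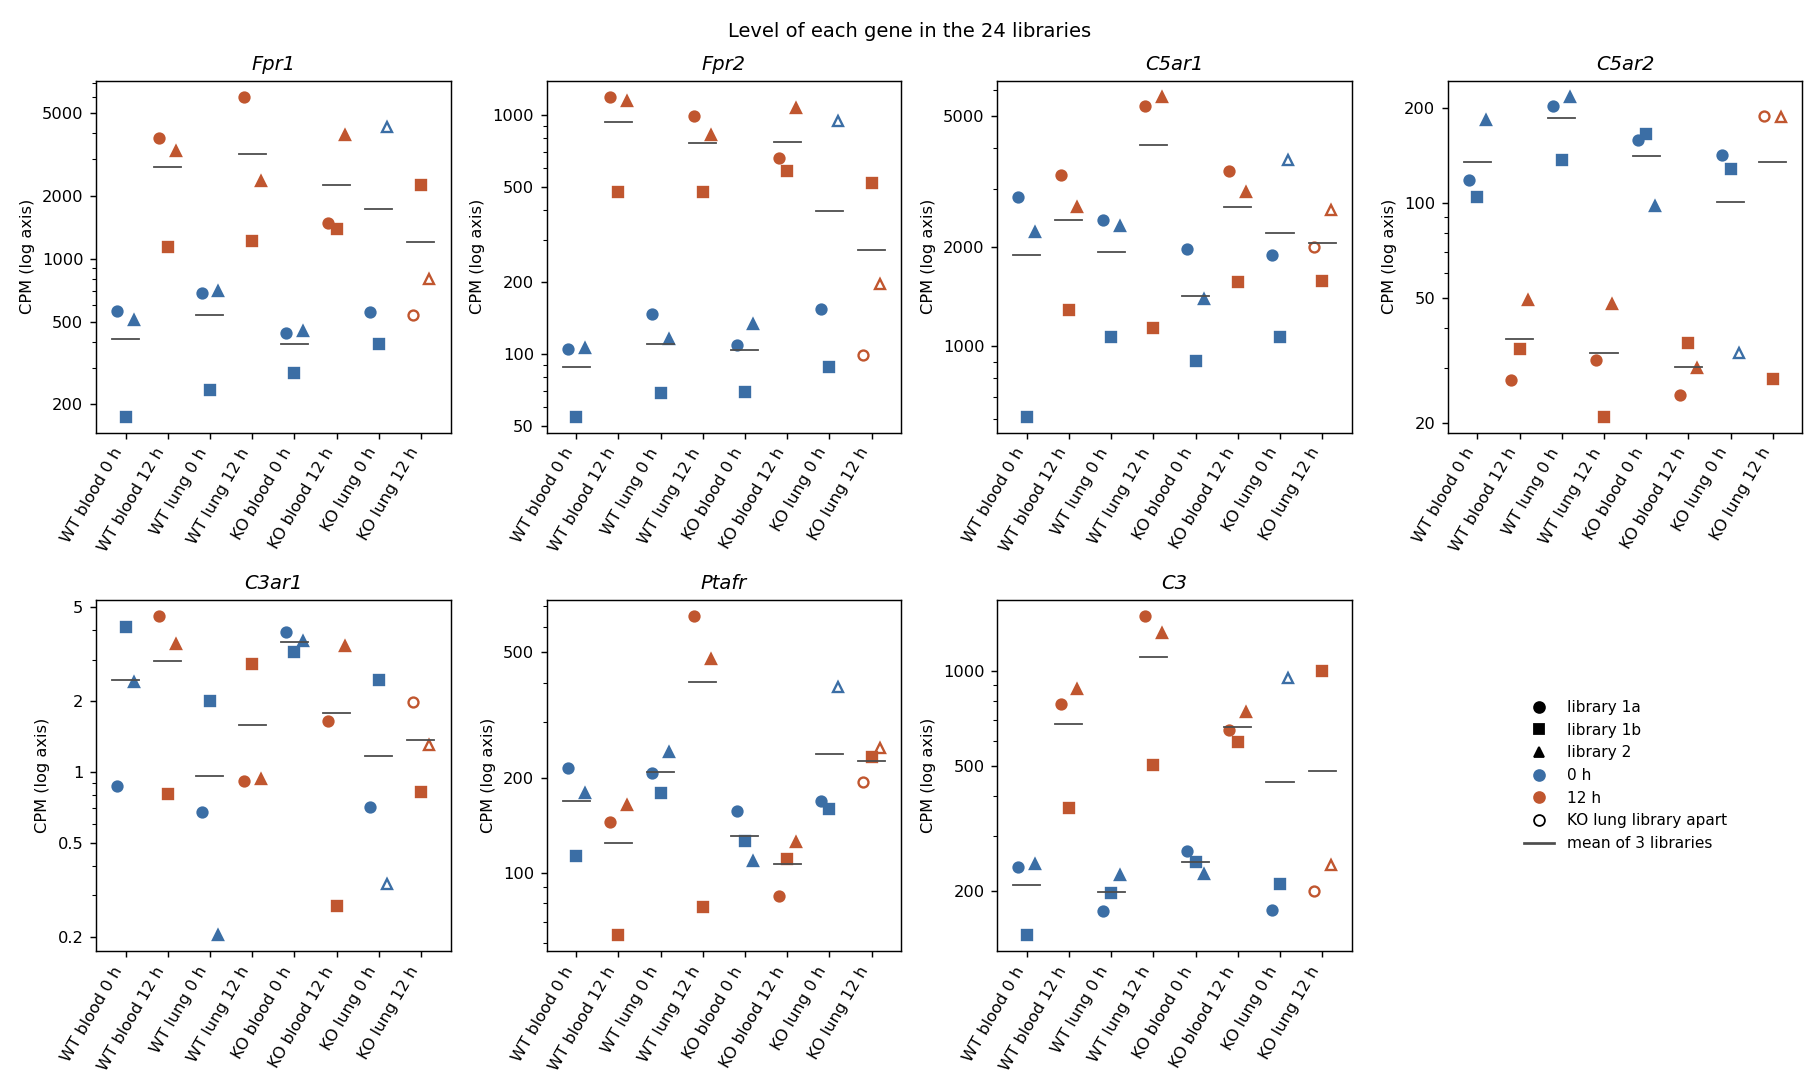
Levels of the 7 genes in CPM (log axis, a panel per gene) in the 8 groups, with circles for library 1a, squares for library 1b, triangles for library 2, blue for 0 h, orange for 12 h, open symbols for the 3 αD KO lung libraries that stand apart and a line at the mean of 3 libraries. Fpr1, Fpr2 and C3 sit higher and C5ar2 lower at 12 h in WT blood, WT lung and αD KO blood, and the open symbols lie with the other time.

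In αD KO lung, 0 of the 7 genes was called between 12 h and 0 h, as were 0.0% of the 17939 genes tested. At an unadjusted p under 0.05, 72 genes of the table and 0 of the 7 passed, and the DESeq2 Wald test called 0 genes. Fpr2 was at 154, 87.8 and 943 CPM at 0 h and at 98.8, 520 and 195 CPM at 12 h. C5ar2 was at 141, 128 and 33.4 CPM at 0 h and at 188, 27.7 and 188 CPM at 12 h. C3 was at 175, 211 and 948 CPM at 0 h and at 201, 999 and 243 CPM at 12 h. In each of the 3 genes the libraries that stand apart had levels nearer to those of the other time in the remaining strata, and 0 of the 7 genes lacked overlap, against 2.88% of genes tested. Fpr1 followed, at 554, 390 and 4272 CPM at 0 h and at 538, 2259 and 801 CPM at 12 h.

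The αD KO lung log2 fold changes were -0.26 ± 1.01 for Fpr1, -0.26 ± 0.98 for Fpr2, 0.33 ± 0.73 for C5ar2 and 0.40 ± 0.91 for C3 (SE). Without the 3 libraries that stand apart they were 2.33 ± 0.76 (edgeR adjusted p = 0.101), 2.17 ± 0.70 (adjusted p = 0.101), -2.20 ± 0.77 (adjusted p = 0.172) and 2.46 ± 0.73 (adjusted p = 0.0503). That fit sets 2 libraries at 0 h against a lone library at 12 h, which is assumed to vary like the others, and it called 0 of the 7 genes and 1.41% of all genes. The 3 libraries were set apart by a scale made of genes that change with time, so the direction of these values follows from leaving them out and they are given as a description.

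Averaged over the 4 strata of genotype and tissue (12 libraries against 12), Fpr1, Fpr2 and C3 rose and C5ar2 fell from 0 h to 12 h. The edgeR log2 fold changes were 1.93 ± 0.53 for Fpr1 (adjusted p = 0.029), 2.28 ± 0.52 for Fpr2 (adjusted p = 0.0136), 1.43 ± 0.36 for C3 (adjusted p = 0.0187) and -1.59 ± 0.38 for C5ar2 (adjusted p = 0.0163). Of 27145 genes tested, 2.91% were called higher and 2.26% lower, and 3 of the 7 genes were called higher and 1 lower. Without the 3 αD KO lung libraries that stand apart, the changes of Fpr1, Fpr2, C3 and C5ar2 were 2.51 ± 0.35, 2.88 ± 0.27, 1.91 ± 0.24 and -2.20 ± 0.23, larger and with smaller errors as the choice of libraries makes them. With the files of sample 1 summed (n = 2 per group), 0 of the 7 genes and 0.0116% of all genes were called. Over 24 fits that each left out a library, Fpr2 was called in 24, C5ar2 and C3 in 22 each and Fpr1 in 9 (adjusted p up to 0.0985, log2 fold changes of 1.59 to 2.34). Without αD KO blood 0 h library 1b or library 2, 1 of the 7 genes was called, against 1.6% and 1.81% of all genes.

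**Figure D2:**
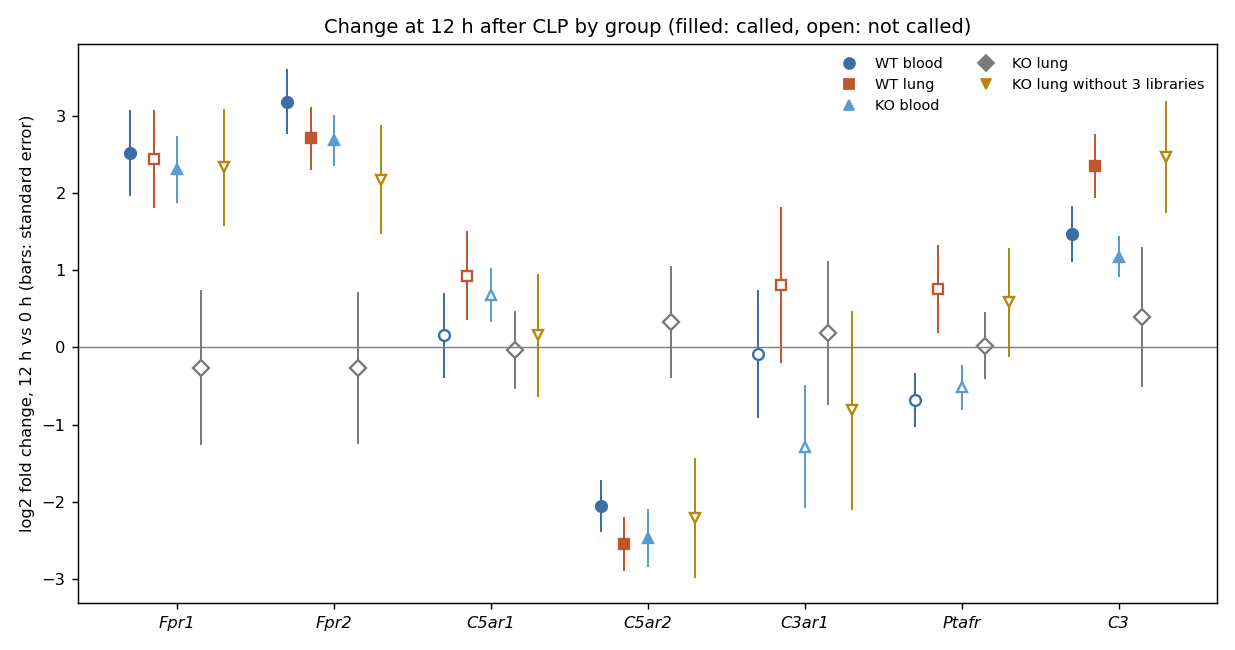
Log2 fold change at 12 h against 0 h, with SE bars, of the 7 genes in WT blood, WT lung, αD KO blood and αD KO lung, the last also without the 3 libraries that stand apart (filled symbols, called by edgeR). C5ar1, C3ar1 and Ptafr have no filled symbol, and the αD KO lung values of Fpr1, Fpr2, C5ar2 and C3 sit near 0 until the 3 libraries are left out.

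C5ar1, C3ar1 and Ptafr were not called with time in any stratum. C5ar1 was at 2851, 612 and 2229 CPM in WT blood at 0 h and at 3312, 1293 and 2645 CPM at 12 h. The times overlapped, and the log2 fold change was 0.16 ± 0.55 in WT blood, 0.93 ± 0.58 in WT lung, 0.68 ± 0.35 in αD KO blood and -0.03 ± 0.50 in αD KO lung (SE). In WT blood, WT lung and αD KO blood C5ar1 was higher at 12 h in each library number. The fits with the library number as a block did not call it. Ptafr changed by -0.68 ± 0.35 in WT blood and by -0.52 in αD KO blood on the log2 scale, and by 0.76 in WT lung. In WT lung at 12 h Ptafr was at 651, 77.8 and 474 CPM, so that library 1b lay below every 0 h library and the other 2 above all of them. C3ar1 was close to the limit of detection, with 3 to 97 counts per library and 0.202 to 4.61 CPM, and no change with time was detectable at this depth (log2 fold changes of -1.28 ± 0.80 to 0.81 ± 1.01).

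C5a has a receptor that couples to G proteins and another that does not, and their balance within a library needs no scaling between libraries. The ratio of C5ar1 to C5ar2, each per kb of exon, was 8.12, 16.9 and 33.4 (lowest, median and highest) in WT blood at 0 h and 52.0, 74.8 and 167 at 12 h. In WT lung it was 10.9, 14.9 and 16.6 at 0 h and 75.4, 167 and 235 at 12 h. In αD KO blood it was 7.61, 17.4 and 19.8 at 0 h and 60.7, 137 and 194 at 12 h. Every 12 h library of these 3 strata lay above every 0 h library. In αD KO lung the ratio was 18.6, 11.6 and 153 in libraries 1a, 1b and 2 at 0 h and 14.8, 78.9 and 19.2 at 12 h, and the high values at 0 h and the low values at 12 h were in the libraries that stand apart.

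The ratio was higher at 12 h, 5.21-fold in WT blood, 10.3-fold in WT lung and 8.5-fold in αD KO blood, each with an exact two-sided permutation p of 0.1, the smallest that 3 libraries against 3 allow. Over all 4 strata, with labels permuted within each stratum, the rise was 4.48-fold (exact permutation p = 0.00124). Over the 3 strata without αD KO lung it was 7.70-fold, given as a description since the stratum that was left out is the one where the times overlap. In αD KO lung the log2 difference was -0.18 (exact permutation p = 0.9). The ratio of Fpr1 to Fpr2 per kb was 2.21 to 5.94 over all libraries, and it was lower at 12 h by 0.34 on the log2 scale over the 4 strata (exact permutation p = 0.0409). Benjamini-Hochberg adjustment over these 12 tests (2 ratios in 6 sets of libraries) gave an adjusted exact permutation p of 0.00744 for the C5ar1 to C5ar2 ratio over the 4 strata and of 0.123 for the Fpr1 to Fpr2 ratio, which did not pass. The C5ar1 to C5ar2 ratio rests on the same C5ar2 counts as the test of C5ar2 itself. These permutations took libraries 1a and 1b of a sample as separate, and no version with 1 value per sample is given.

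**Figure D3:**
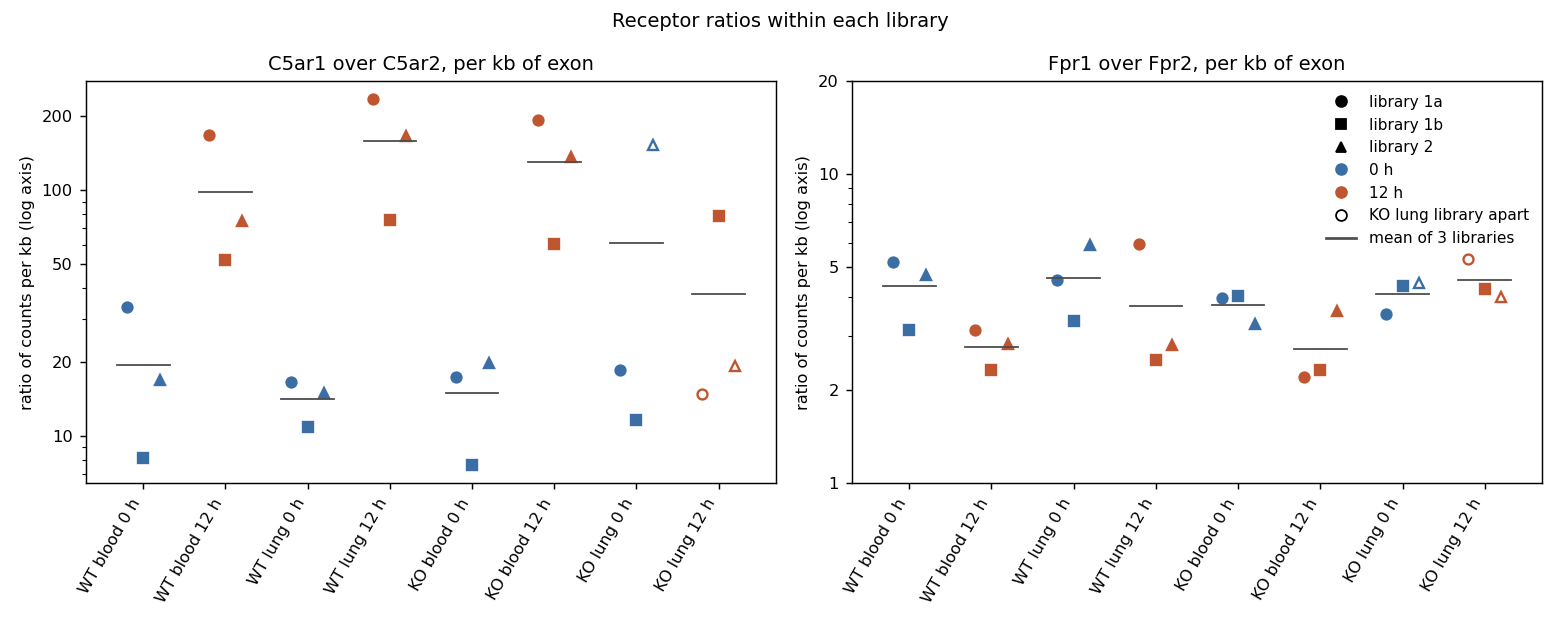
Ratios of C5ar1 to C5ar2 and of Fpr1 to Fpr2, each gene in CPM per kb of exon, within each library (log axis), with the symbols of the plot of levels. The C5ar1 to C5ar2 ratio was 7.61 to 33.4 at 0 h and 52.0 to 235 at 12 h in the 3 strata without αD KO lung, and that of Fpr1 to Fpr2 stayed within 2.21 to 5.94.

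Compared per length, the order of the mean levels changed between the times in WT blood, WT lung and αD KO blood, and in αD KO lung it depended on the libraries that stand apart. In WT blood at 0 h the mean level was 738 CPM per kb for C5ar1, 313 for Fpr1, 68.2 for Fpr2, 46.5 for Ptafr, 40.7 for C3, 37.9 for C5ar2 and 0.574 for C3ar1. At 12 h in WT blood Fpr1 was at 2075 CPM per kb, C5ar1 at 940, Fpr2 at 722, C3 at 132, Ptafr at 34.1, C5ar2 at 10.4 and C3ar1 at 0.688. Fpr1 took the place of C5ar1 as the highest. By the group means, the order was also C5ar1, Fpr1 and Fpr2 at 0 h and Fpr1, C5ar1 and Fpr2 at 12 h in WT lung (755, 407 and 85.3 CPM per kb, then 2402, 1588 and 586) and in αD KO blood (556, 296 and 80.2, then 1714, 1032 and 594). In single 12 h libraries C5ar1 was above Fpr1 in WT lung library 2 (2229 against 1776 CPM per kb) and in αD KO blood library 1a (1333 against 1128 CPM per kb). In αD KO lung the group means put Fpr1 (1313 CPM per kb at 0 h and 906 at 12 h) above C5ar1 (862 and 803) and Fpr2 (305 and 209) at both times. That order was not the one in most of its libraries, since Fpr1 was above C5ar1 only in 0 h library 2 (3227 against 1432 CPM per kb) and 12 h library 1b (1706 against 613). C5ar1 was above Fpr1 in 0 h libraries 1a and 1b (739 against 419 and 416 against 295 CPM per kb) and in 12 h libraries 1a and 2 (782 against 406 and 1012 against 605). Without the 3 libraries that stand apart C5ar1 was therefore first at 0 h and Fpr1 first in the lone 12 h library, the order of the other strata, which is a description for the reason given above. In WT blood at 0 h the levels of Ptafr, C3 and C5ar2 differed by less than their spread.

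Across the groups, Fpr1 was highest in WT lung at 12 h (3180 ± 2488 CPM, SD, n = 3), followed by WT blood (2747 ± 1418) and αD KO blood (2269 ± 1440) at 12 h, which overlapped each other. C5ar2 was highest in WT lung at 0 h (185 ± 42.9 CPM) and lowest in αD KO blood at 12 h (30.1 ± 5.76 CPM). Its 3 lowest groups, WT blood, WT lung and αD KO blood at 12 h, lay within 30.1 to 37.0 CPM on average and did not differ beyond their spread. C3 was highest in WT lung at 12 h (1104 ± 529 CPM) and lowest in WT lung at 0 h (199 ± 26.1 CPM). Ptafr had its highest mean in WT lung at 12 h (401 ± 294 CPM) and its lowest in αD KO blood at 12 h (107 ± 20.8 CPM).

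None of the 7 genes was called between lung and blood neutrophils in the main edgeR test. The share of genes called was 0.0% in WT at 0 h, 0.0442% in WT at 12 h, 0.0% in αD KO at 0 h and 0.0548% in αD KO at 12 h, and 0.91% over the 4 strata. DESeq2 called 0 of the 7 in both 0 h comparisons (against 0.294% of all genes in WT and 0.568% in αD KO), 1 in WT at 12 h (against 8.28% of all genes), 2 in αD KO at 12 h (10.2%) and 1 over the strata (2.98%). An unadjusted p below 0.05 was held by 0 of the 7 in WT at 0 h, 1 in WT at 12 h (against 18.1% of all genes), 1 in αD KO at 0 h (2.91%), 2 in αD KO at 12 h (22.2%) and 2 over the strata (10.2%), so that these counts are near the background at 12 h. Fpr1 was the gene with such a p in αD KO at 0 h, at a log2 difference of 2.07 ± 0.86 (SE). Over 6 fits that left out a library, the Fpr1 value ranged from 0.44 to 2.60. Lung library 2, which stands apart, was at 4272 CPM for Fpr1. C5ar2 was 1 of the 2 genes that DESeq2 called in αD KO at 12 h. Ptafr, the PAF receptor, was the gene that DESeq2 called in 3 of the 5. In αD KO it was at 157, 126 and 109 CPM in blood and at 169, 159 and 387 CPM in lung at 0 h, and at 84.4, 111 and 125 CPM in blood and at 194, 233 and 249 CPM in lung at 12 h. The tissues did not overlap at either time in αD KO, and Ptafr was 1 of 2 such genes among the 7 each time, against 6.61% of genes at 0 h and 28.8% at 12 h.

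The Ptafr log2 difference, lung minus blood, was 0.82 ± 0.39 in αD KO at 0 h and 1.28 ± 0.35 at 12 h (SE, edgeR adjusted p = 0.113). Over 6 fits that each left out a library it was 0.47 to 1.11 at 0 h and 1.08 to 1.41 at 12 h. In WT it was 0.22 ± 0.20 at 0 h and 1.66 ± 0.58 at 12 h (adjusted p = 0.204), where the tissues overlapped because lung library 1b lay at 77.8 CPM. Without that library the WT 12 h difference was 2.07 ± 0.34 (adjusted p = 0.00723, called, as were 20.2% of all genes in that fit). Over the 4 strata it was 0.99 ± 0.27 (adjusted p = 0.0854), and over 34 alternatives it ranged from 0.87 to 1.08 with an adjusted p of 0.000694 to 0.694, called in 5. Markers of lung structural cells moved with tissue: their summed level (16 genes) was 24.2 to 345 CPM in blood libraries and 70.4 to 1178 CPM in lung libraries, 6 of the 16 were called higher in lung over the 4 strata, and Sftpc was at 0 in all 3 αD KO blood libraries at 12 h. Over the 4 strata the other lists had no marker called except 1 of the 14 monocyte and macrophage markers, which was lower in lung. All 9 platelet, all 7 erythroid and all 10 B cell markers, and 7 of the 10 neutrophil markers, had log2 differences below 0 without a call. The part of these markers in the Ptafr difference was not tested.

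C5ar2 and Fpr2 in αD KO at 12 h had differences of opposite sign that were not called in the main test, and both moved when the libraries that stand apart were left out. The values without them set a lone lung library at 12 h against blood, and the libraries were chosen on a scale with which both genes move, so they are a description. The C5ar2 difference, lung minus blood, was 2.23 ± 0.59 (edgeR adjusted p = 0.108), and -0.00454 ± 0.52 without lung libraries 1a and 2. For Fpr2 it was -1.16 ± 0.67 (adjusted p = 0.33) with no overlap between the tissues, and -0.43 ± 0.52 without those libraries. Over 15 alternatives C5ar2 was called in 4, DESeq2 among them, and Fpr2 in 1. Leaving out the remaining library 1b instead gave 3 calls, C5ar2 (2.67), Fpr2 (-2.33) and C3 (-1.53), in a fit that called 11.2% of all genes. C3ar1 was lower in lung than in blood in αD KO at 0 h with no overlap (0.335 to 2.45 CPM against 3.24 to 3.91 CPM), with a log2 difference of -1.55 ± 0.91 that did not pass the test. There all 14 monocyte and macrophage, 10 B cell, 10 T and NK cell, 9 platelet and 7 erythroid markers were lower in lung without a call. Of the others, 3 of 10 neutrophil markers were lower and 15 of 16 lung structural markers were higher. The part of these markers in the C3ar1 difference was not tested. In WT at 12 h, 0 of the 7 genes lacked overlap, against 22.4% of genes tested.

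No gene of the 7 was called between αD KO and WT. In blood at 0 h the log2 differences, labelled αD KO minus labelled WT, ran from -0.37 ± 0.50 for C5ar1 to 0.36 ± 0.80 for C3ar1. In blood at 12 h they ran from -0.70 ± 0.81 for C3ar1 to 0.15 ± 0.34 for C5ar1. The 95% interval from the standard error was -1.18 to 0.70 for Fpr1, -0.90 to 0.42 for Fpr2, -0.94 to 0.39 for C5ar2 and -0.55 to 0.58 for C3 in blood at 12 h. A missed threshold does not show that the genotypes were alike, and these intervals give the sizes that remain possible. The background was 0.0115% of genes called in blood at 0 h and 0.0% in blood at 12 h, lung at 0 h and lung at 12 h. In these 4 comparisons DESeq2 called 0 of the 7 genes, against 0.0346%, 0.127%, 0.0329% and 1.15% of all genes. An unadjusted edgeR p below 0.05 was held by 0, 0, 0 and 1 of the 7. Of all genes tested, 123 of 17356, 505 of 12596, 340 of 18232 and 1390 of 16764 (8.29%) had such a p.

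In lung, the differences between the genotype labels were wider and moved with the libraries that stand apart. At 0 h they were 1.57 ± 0.88 for Fpr1, 1.72 ± 0.80 for Fpr2 and 1.05 ± 0.60 for C3 (edgeR adjusted p = 0.983 each), and -0.14 ± 0.55, 0.19 ± 0.44 and 0.00228 ± 0.30 without αD KO library 2. At 12 h they were -1.08 ± 0.77 for Fpr1, -1.19 ± 0.67 for Fpr2 and 2.16 ± 0.65 for C5ar2 (adjusted p = 0.598). Without αD KO libraries 1a and 2, which leaves a lone αD KO library and is a description for the same reason, these 3 values were -0.12 ± 1.12, -0.21 ± 0.74 and 0.05 ± 0.58. Averaged over the 4 strata, the 7 differences lay between -0.31 ± 0.26 (Ptafr) and 0.18 ± 0.36 (C5ar2), 0 were called by edgeR or DESeq2 or had an unadjusted p under 0.05, and 0.0442% of all genes were called by edgeR and 0.0626% by DESeq2. The labels are at odds with Itgad in all of these comparisons.

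Whether the change with time differed between tissues or genotypes was tested by interaction terms, and 0 of the 7 genes passed in any of the 4, as did 0.0% of genes in each. In αD KO the change in lung minus that in blood was -3.02 ± 1.19 for Fpr1 (edgeR adjusted p = 0.407), -3.40 ± 1.13 for Fpr2 (adjusted p = 0.403) and 2.61 ± 0.92 for C5ar2 (adjusted p = 0.403). Without the 3 libraries that stand apart these were -0.28, -0.81 and -0.10. In lung the change in αD KO minus that in WT was -2.73 ± 1.26 for Fpr1, -3.01 ± 1.12 for Fpr2, 2.95 ± 0.96 for C5ar2 and -2.02 ± 1.02 for C3, and -0.01, -0.43, 0.41 and 0.18 without them. In WT the tissues differed most in Ptafr (1.33 ± 0.80), and in blood the genotypes had adjusted p-values of 1 for all 7 genes. An unadjusted p under 0.05 was reached by 3 of the 7 genes for tissue and time in αD KO (against 10.6% of all genes), by 2 for genotype and time in lung (10.5%) and by 0 in the other 2 interactions, and DESeq2 called 0 of the 7 in each, against 0.00505% to 1.51% of all genes.

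Other genes of the same pathways were followed in 9 lists. The list genes were measured in the same libraries as the 7 genes, at both times, and some lists hold genes of the 7. Values of the lists therefore stand beside those of the 7 genes without a test between them. Their counts stand against the shares of all genes called, 7.75% higher and 5.75% lower in WT blood, 5.24% and 3.78% in WT lung and 3.75% and 4.99% in αD KO blood. Of 7 genes that encode ligands of the formyl peptide receptors, 5 were tested in WT blood and 3 were called higher, with none lower, and the counts were 3 of 6 in WT lung and 3 of 5 in αD KO blood. The median log2 change of the tested ligand genes was 2.83, 3.58 and 2.59 in these strata, against -0.15, 0.03 and -0.14 for all genes. Saa3, an acute-phase serum amyloid A, rose by 7.54 in WT blood, 9.88 in WT lung and 6.78 in αD KO blood on the log2 scale. These rises start near the floor, from means of 0.866, 0.688 and 1.79 CPM at 0 h. In WT lung at 12 h Saa3 was at 741 ± 742 CPM (SD, n = 3). App, whose product gives the amyloid β peptide, rose by 2.83, 2.60 and 2.59. Anxa1, encoding the pro-resolving protein annexin A1, rose by 2.75 in WT blood and 2.25 in αD KO blood, and was at 1.77 (edgeR adjusted p = 0.0518) in WT lung. Camp, the cathelicidin gene, rose by 4.54 in WT lung.

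Among 20 complement component genes, 8 to 11 were tested in WT blood, WT lung and αD KO blood, and 16 in αD KO lung. C3 was the only one called higher in WT blood and in αD KO blood, and Hc, which encodes C5, was called with it in WT lung (3.56 ± 0.61 on the log2 scale). Hc was near the floor at 0 h in WT lung, with a mean of 1.18 CPM. C1qa and C1qc, subunits of the recognition protein of the classical pathway that macrophages make, had log2 fold changes of -4.03 and -4.27 in αD KO blood and were called lower. Their means there were 3.47 and 6.75 CPM at 0 h and 0.226 and 0.375 CPM at 12 h, close to the floor. Of 15 regulators of complement, Cd55, which speeds the decay of the C3 convertases, rose by 3.27 in WT blood and by 2.47 in WT lung, and it was at 0.46 ± 0.86 in αD KO blood. Clu was called lower in WT blood (-3.27). The 8 complement receptor genes include C5ar1, C5ar2 and C3ar1. Besides C5ar2, Itgax, the α chain of complement receptor 4, fell in WT blood, WT lung and αD KO blood (-4.22, -2.31 and -4.07). Itgam, the α chain of complement receptor 3, rose by 1.81 in WT blood and was at 1.14 ± 0.40 and 0.51 ± 0.32 in the other 2 strata.

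Of the 10 genes listed under PAF synthesis and breakdown, Lpcat3 rose in WT blood (1.55) and αD KO blood (1.43), and 0 were called in WT lung. Pafah2, a PAF acetylhydrolase, rose in WT blood (4.44 ± 0.51) from a mean of 0.731 CPM at 0 h, near the floor. PAF was not measured here, and a place in the list does not show that a gene's product makes PAF. The 20 genes for G protein signalling below the receptors were all tested. In WT blood 2 were called higher and 1 lower, in WT lung 1 and 1, and in αD KO blood 0 and 3, so that the WT counts were near the shares of all genes. Gna15, a G protein α subunit, rose by 3.07 in WT blood from a low level (4.15 ± 3.55 CPM at 0 h, SD, n = 3). Plcb3 rose by 1.28 in WT blood, and Gnb1 rose by 1.89 in WT lung. Gngt2, a γ subunit, fell in WT blood (-2.11) and αD KO blood (-2.65), and Dock2 fell in αD KO blood (-1.17). Pik3cg, the catalytic subunit of the lipid kinase that G protein βγ subunits activate, fell in WT lung (-1.51) and αD KO blood (-1.52). The β-arrestins, which desensitise such receptors, moved apart: Arrb1 fell in WT blood, WT lung and αD KO blood (-1.42, -1.97 and -1.82), whereas Arrb2 rose by 1.5 in WT blood and 1.35 in αD KO blood and was at 1.29 ± 0.47 in WT lung. Rgs2, a regulator that shortens G protein signals, fell in all 3 (-3.22, -2.70 and -2.47).

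Among 10 other chemoattractant receptors, 2 were called higher in each of these strata, and 2 were called lower in each blood stratum. Ltb4r1, the high-affinity leukotriene B4 receptor, rose by 2.78 in WT blood, 2.34 in WT lung and 1.74 in αD KO blood. S1pr4, a sphingosine 1-phosphate receptor, rose by 1.81 in WT blood and 1.60 in WT lung, and P2ry2 rose by 1.14 in αD KO blood. Cxcr1 fell in WT blood (-3.05) and αD KO blood (-3.31), and Cxcr4, which retains neutrophils in the bone marrow, fell in the same groups (-2.55 and -2.03). Fpr3, the third of the 7 genes in the formyl peptide receptor list to pass the filter over the 4 strata, was at 0 to 2.52 CPM and was not called (0.42 ± 1.18). Over the 4 strata, Cr2 (-2.14) and Serping1 (-2.53) were also called lower with time. C1s1 (4.64), Serping1 (4.67) and Cxcr4 (1.93) were called higher in lung, where 0.91% of all genes were called. In αD KO blood at 12 h Cr2, C1s1 and Serping1 had means of 0.525, 0.0 and 0.0298 CPM, close to the floor. In αD KO lung 0 genes of the 9 lists were called.

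**Figure D4:**
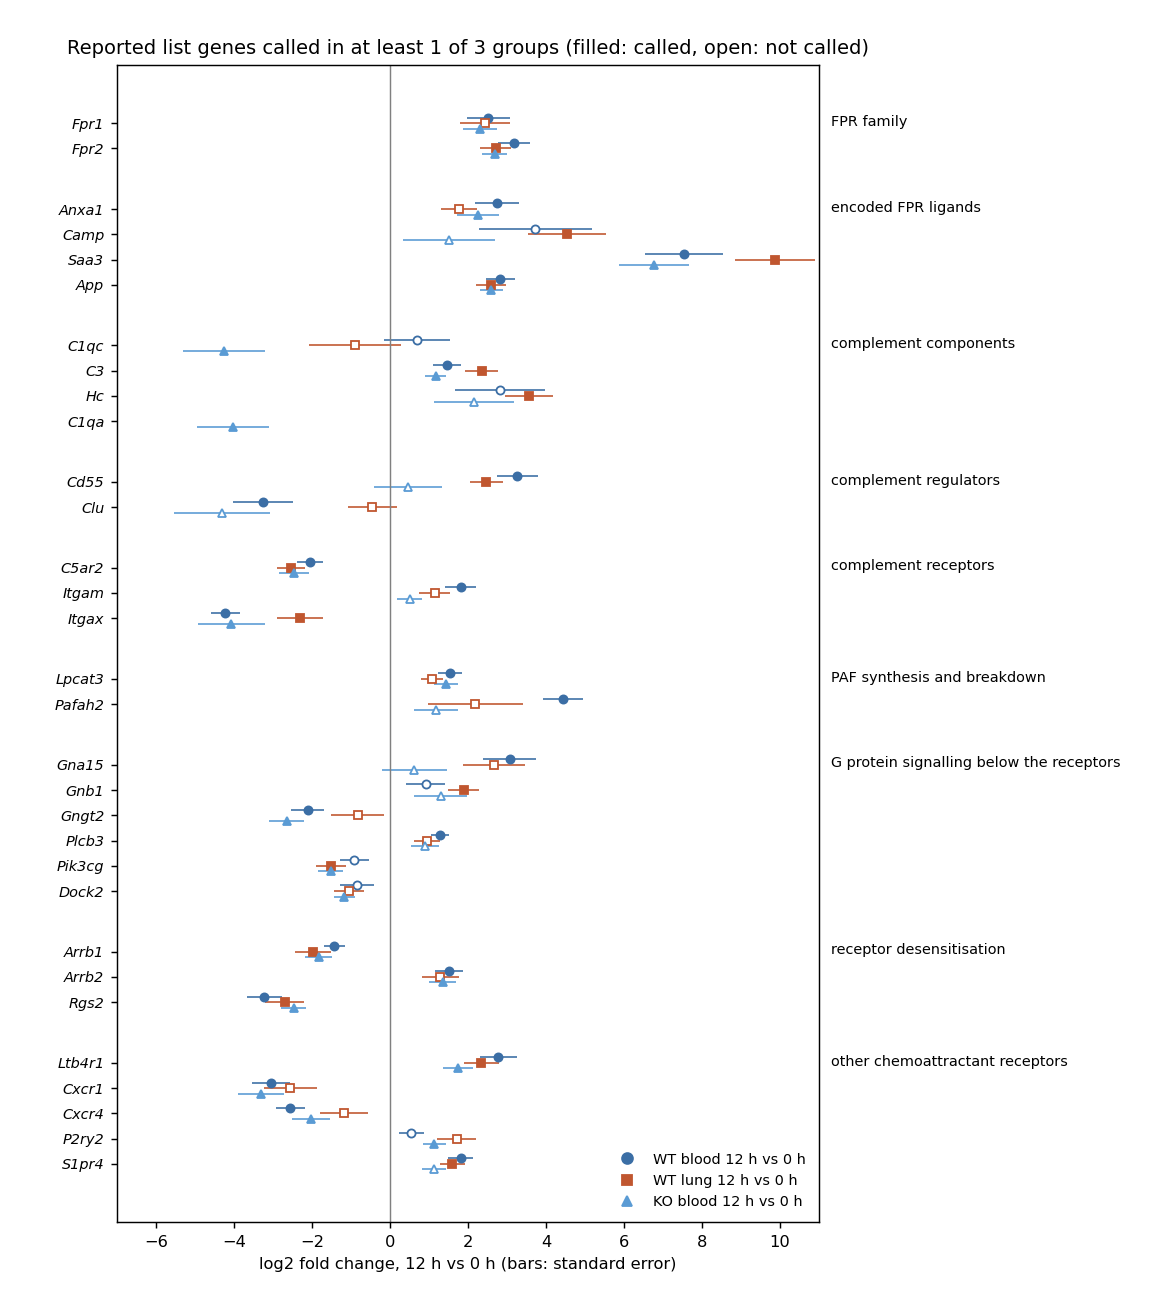
Log2 fold change at 12 h against 0 h, with SE bars, of the reported pathway genes called in at least 1 of WT blood, WT lung and αD KO blood (filled symbols, called). Saa3 has the largest rise of these genes in each stratum, from near the floor at 0 h. Arrb1 and Rgs2 are called lower in all 3 while Ltb4r1 is called higher in all 3.

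Markers of other cell types moved with time beside the 4 called genes. The summed level of 14 monocyte and macrophage markers was 509 to 1481 CPM at 0 h and 181 to 537 CPM at 12 h in WT blood, 712 to 1272 and 380 to 487 CPM in WT lung, and 718 to 1638 and 202 to 274 CPM in αD KO blood. Of these markers 3, 4 and 6 were called lower, and none was at 0 in all libraries of a group. The sum of 10 B cell markers was 279 to 1634 CPM at 0 h and 36.0 to 284 CPM at 12 h in these 3 strata, with 1, 4 and 3 called lower. The 9 platelet markers summed to 58.7 to 160 CPM at 0 h and 8.14 to 35.3 CPM at 12 h in WT blood, with 4 called lower, and 1 and 3 were called lower in WT lung and αD KO blood. Of the T and NK cell, the erythroid and the eosinophil, basophil and mast cell lists, at most 1 marker was called in each direction in a stratum. The 16 lung structural markers summed to 77.3 to 242 CPM at 0 h and 214 to 447 CPM at 12 h in WT lung, with 1 called higher, and to 288 to 1178 CPM and 70.4 to 281 CPM in αD KO lung, with 0 called. The 10 neutrophil markers summed to 29403 to 69976 CPM at 0 h and 117187 to 300416 CPM at 12 h, with 6, 3 and 4 called higher and 1 lower in each. In αD KO lung, the 0 h library range of the monocyte sum was 317 to 685 CPM and the 12 h range 418 to 1132 CPM. The part of these markers in the changes of Fpr1, Fpr2, C3 and C5ar2 was not tested. In sorted bulk RNA, fewer cells of a type and less RNA per cell cannot be told apart.

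Across the 24 libraries the 4 called genes tracked each other. Pearson's r of log2 CPM was 0.962 for Fpr1 with Fpr2, 0.919 for Fpr1 with C3 and 0.92 for Fpr2 with C3, and it was -0.864 for C5ar2 with Fpr2 and -0.833 for C5ar2 with C3. Fpr1 and C5ar1 had an r of 0.732, while Ptafr had 0.346 with Fpr1 and 0.631 with C5ar1. The libraries share time, tissue and depth, and these values are descriptions. Of 6633 genes with a mean of at least 10 CPM, the patterns most like that of Fpr1 were those of Casp4 (r = 0.97), Fpr2 (0.962) and Sod2 (0.961). For Fpr2 they included Qsox1 (0.98) and Upp1 (0.976), and for C3 Tnip1 (0.98), Ikbke (0.968) and Sod2 (0.968). C5ar1 was nearest to Ppp1r12a (0.956), Cd300lf (0.953) and Diaph1 (0.953), and C5ar2 to Pknox1 (0.976), Gm16556 (0.974) and Gm39321 (0.968). Ptafr was nearest to Tgif1 (0.941), Gadd45b (0.935) and Gm37084 (0.918). The low counts of C3ar1 gave weaker values, led by Ms4a6b (0.737), Adgre4 (0.647) and Fn1 (0.645).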

How the data were processed

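RNA of sorted neutrophils was amplified as full-length cDNA (SMART-Seq v4), made into Nextera XT libraries and sequenced in pairs. The authors trimmed reads with Trimmomatic 0.36, mapped them with STAR 2.5.2b and counted unique reads within exons, and the deposited values are raw counts for 49315 genes, neither normalized nor filtered. The counter and its strand setting were not given in the sources used here. Positions are on GRCm38, with which 44858 identifiers in the files shared coordinates. Files 1a and 1b of a group differed beyond sampling noise (chi-square per degree of freedom 63.5 to 328.5) and were taken as separate libraries.

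The main test was edgeR 4.0.16 (R 4.3.3), with TMM scaling, genes kept by filterByExpr and a two-sided quasi-likelihood F test, Benjamini-Hochberg adjusted over all genes tested. It was run on 12 pairs of groups, 4 interactions (adjusted p alone) and 3 contrasts averaged over 4 strata. Alternatives were DESeq2 1.42.0, RLE factors, other filters, all 8 groups together, summed files, each library left out and the library number as a block. The labels give groups the same sample numbers. Deviations of same-numbered libraries from their group means correlated above 0.1 for all 3 numbers in 10 of 12 pairs, with the exceptions of αD KO 0 h lung against blood (lowest 0.0885) and lung 0 h αD KO against WT (-3.14e-07). Ratios were compared by exact permutation tests. The members, the 9 pathway lists (110 genes), the 8 marker lists (86 genes) and the tests were chosen with earlier results of these data known. For each list in WT blood, WT lung and αD KO blood, the called genes with the largest absolute change were named, up to 3. P2ry2 in αD KO blood was named in addition. List genes called over the 4 strata were not all named. For each member, the 3 genes with the highest correlation were named. Of the genes these rules name, 2 are not reported here. Intervals and SEs cover the spread between these libraries. Promoters came from RefSeq (GRCm38.p6). C3ar1 counts were too low for more than large changes to be detected.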

Additional observations from a re-analysis of the deposited data

How the results depend on the processing

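Counts of calls are of the 7 genes, with the share of all genes called in the same fit in parentheses. In WT blood at 12 h against 0 h, 1 gene was called with no filter on low counts (2.25%) and 1 with all 8 groups in the same fit (4.12%), which gave 1 in WT lung (1.65%) and 0 in αD KO blood (0.236%). In lung against blood at 12 h, WT had 1 call with DESeq2 (8.28%) and 1 with the files of sample 1 summed (4.47%), and αD KO had 1 without a filter (3.13%), 2 with DESeq2 (10.2%) and 1 with summed files (8.27%). With summed files 0 genes were called for time over the 4 strata (0.0116%). For tissue over the 4 strata, 1 gene (Ptafr) was called with RLE factors (1.02%), with no filter (0.544%), with at least 10 counts in every library (1.87%) and with DESeq2 (2.98%). Leaving out each library in turn gave 0 to 4 calls in WT blood (0.00999% to 18.4%), 0 to 6 in WT lung (0.0% to 25.3%) and 0 to 4 in αD KO blood (0.456% to 8.74%) for time, 0 to 1 in WT (0.0% to 20.2%) and 0 to 3 in αD KO (0.0% to 11.2%) for tissue at 12 h, and 1 to 4 for time (1.6% to 9.46%) and 0 to 1 for tissue (0.513% to 1.46%) over the strata. The replicate block (library number) gave 4 calls in WT blood (18.4%), 4 in WT lung (6.01%, with Fpr1 added at a log2 fold change of 2.39) and 4 in αD KO blood (10.7%) and changed no other call. Where a called count was lost, the cause was not tested, apart from the fewer libraries that summing or leaving out gives. Of 2463 values of the 7 genes under alternatives, 212 had another sign, 0 of them called in the main test. RLE factors moved the median of all genes by over 0.1 for time over the strata (-0.48 to -0.61) and for tissue by time in WT (0.56 to 0.73) and αD KO (0.44 to 0.64). Depth limits C3ar1, with 3 to 97 counts. DESeq2 gave no adjusted p for Fpr2 over the strata, which is kept as missing.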
